A study of Homo sapiens with 6 samples.

Results

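SMAD3, SMAD6, SMAD7 and SMAD9 encode a transducer of TGF-beta signalling, both inhibitory SMADs and a transducer of bone morphogenetic protein (BMP) signalling. They were taken by gene symbol from the array's probe annotation, which names 1 probe for each, and all 4 were measured among 14884 genes with a named probe. The remaining family members, SMAD1, SMAD2, SMAD4 and SMAD5, also have 1 named probe each and are given beside them. The cells were ARPE-19, a long-used human cell line derived from retinal pigment epithelium, held for 4 weeks at 1% serum to differentiate and then moved to medium without serum. In that medium 3 cultures received vehicle (the untreated group) and 3 received FAC at 250 µM, letters that in work on iron stand for ferric ammonium citrate, and all 6 were collected after 2 days. Both groups therefore share the line and the serum withdrawal, and the model is a single line with no second donor. The comparison asks how transcripts respond to iron loading in this cell type.

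SMAD proteins carry the signal of TGF-beta family receptors from the membrane to the nucleus. Receptors for TGF-beta and activin phosphorylate SMAD2 and SMAD3, receptors for BMPs phosphorylate SMAD1, SMAD5 and SMAD9, and either set binds SMAD4 to enter the nucleus and regulate genes. SMAD6 and SMAD7 lack the site that receptors phosphorylate and act as inhibitors, SMAD6 mainly on BMP signals and SMAD7 on both branches, and their own genes are induced by the pathway as negative feedback. In retinal pigment epithelium TGF-beta is known for driving a fibroblast-like change of the cells, and in the liver BMP signalling through SMADs sets hepcidin, the hormone of iron balance.

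The sequences ahead of the starts of the genes that fell, and of SMAD3 for comparison, are shown because SMAD6, SMAD7 and SMAD9 moved in the same direction and SMAD-bound elements are defined by short letters that can be looked for. Each is the 250 bases before the first start listed by RefSeq (GRCh38.p14), read 5′ to 3′ on the gene's strand. They lie at chr15:66701986-66702235 (plus strand), chr18:48950966-48951215 (minus strand), chr13:36920239-36920488 (minus strand) and chr15:67065352-67065601 (plus strand). Capitals mark matches on either strand to the palindromic SMAD-binding element GTCTAGAC, the CAGACA box, the GC-rich box GGCGCC bound by BMP SMADs, and ACGTG, the core of the element of hypoxia-inducible factors.
SMAD6: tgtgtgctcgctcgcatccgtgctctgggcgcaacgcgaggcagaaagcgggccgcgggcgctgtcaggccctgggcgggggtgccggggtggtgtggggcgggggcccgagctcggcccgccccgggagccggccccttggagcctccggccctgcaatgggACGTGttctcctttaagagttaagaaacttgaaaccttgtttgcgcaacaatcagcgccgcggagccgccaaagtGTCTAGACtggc
SMAD7: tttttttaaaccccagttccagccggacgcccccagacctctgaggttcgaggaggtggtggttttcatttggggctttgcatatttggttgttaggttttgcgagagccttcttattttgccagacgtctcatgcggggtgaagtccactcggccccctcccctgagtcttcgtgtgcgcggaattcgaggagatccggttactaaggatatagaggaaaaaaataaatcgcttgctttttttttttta
SMAD9: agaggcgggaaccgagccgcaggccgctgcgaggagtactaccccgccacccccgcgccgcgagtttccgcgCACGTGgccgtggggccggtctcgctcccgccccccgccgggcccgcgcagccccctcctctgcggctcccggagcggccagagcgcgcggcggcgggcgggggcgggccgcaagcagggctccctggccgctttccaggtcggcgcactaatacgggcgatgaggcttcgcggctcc
SMAD3: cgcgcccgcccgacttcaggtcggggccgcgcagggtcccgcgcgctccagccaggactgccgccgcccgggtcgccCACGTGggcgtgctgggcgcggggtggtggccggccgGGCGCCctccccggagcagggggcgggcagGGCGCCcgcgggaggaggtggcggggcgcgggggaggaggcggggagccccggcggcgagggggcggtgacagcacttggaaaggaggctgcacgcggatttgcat

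In SMAD6 the window held GTCTAGAC once, at position -12 from the start. That element occurred in 0.182% of 35116 such windows of all genes. SMAD6 also held ACGTG at position -87, and SMAD9 held the palindrome CACGTG, which matches ACGTG on each strand. The SMAD3 window held CACGTG once and GGCGCC at positions -136 and -106. ACGTG occurred in 18.5% of all windows, GGCGCC in 16.4% and CAGACA in 13.6%. None of these letters was in the SMAD7 window, nor in the windows of its other annotated starts, 3 in all. The windows of SMAD3 (80.8%), SMAD9 (78.4%) and SMAD6 (68%) were rich in G and C beside a median of 58% for all windows, and that of SMAD7 (48%) was not. A match is a run of letters and not a shown binding site. An absence holds only for the 250 bases before a start, as sequence after the starts or farther ahead was not searched.

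SMAD6, SMAD7 and SMAD9 fell with FAC, by between 1.5-fold and 1.88-fold, and SMAD3 did not pass the test. Thus 3 of the 4 genes were called, all lower, at an adjusted p under 0.05 in limma's test over all genes. The same rule called 3.73% of all genes tested and 1.85% as lower, and 0.356% of genes were called with a fall of at least 1.5-fold, as these 3 were. SMAD7 (1.502-fold) and SMAD9 (1.53-fold) lay near that minimum. Under quantile normalization their log2 fold changes were smaller, at -0.56 and -0.58. The median change of the 4 was -0.60 on the log2 scale, beside -0.0041 over all tested genes. None of the other 4 SMAD genes was called by limma, and 2 of them, SMAD1 and SMAD5, had an unadjusted p under 0.05, as 17.2% of all genes did. In whole-culture RNA, fewer cells of a kind and less transcript per cell cannot be told apart.

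**Figure D1:**
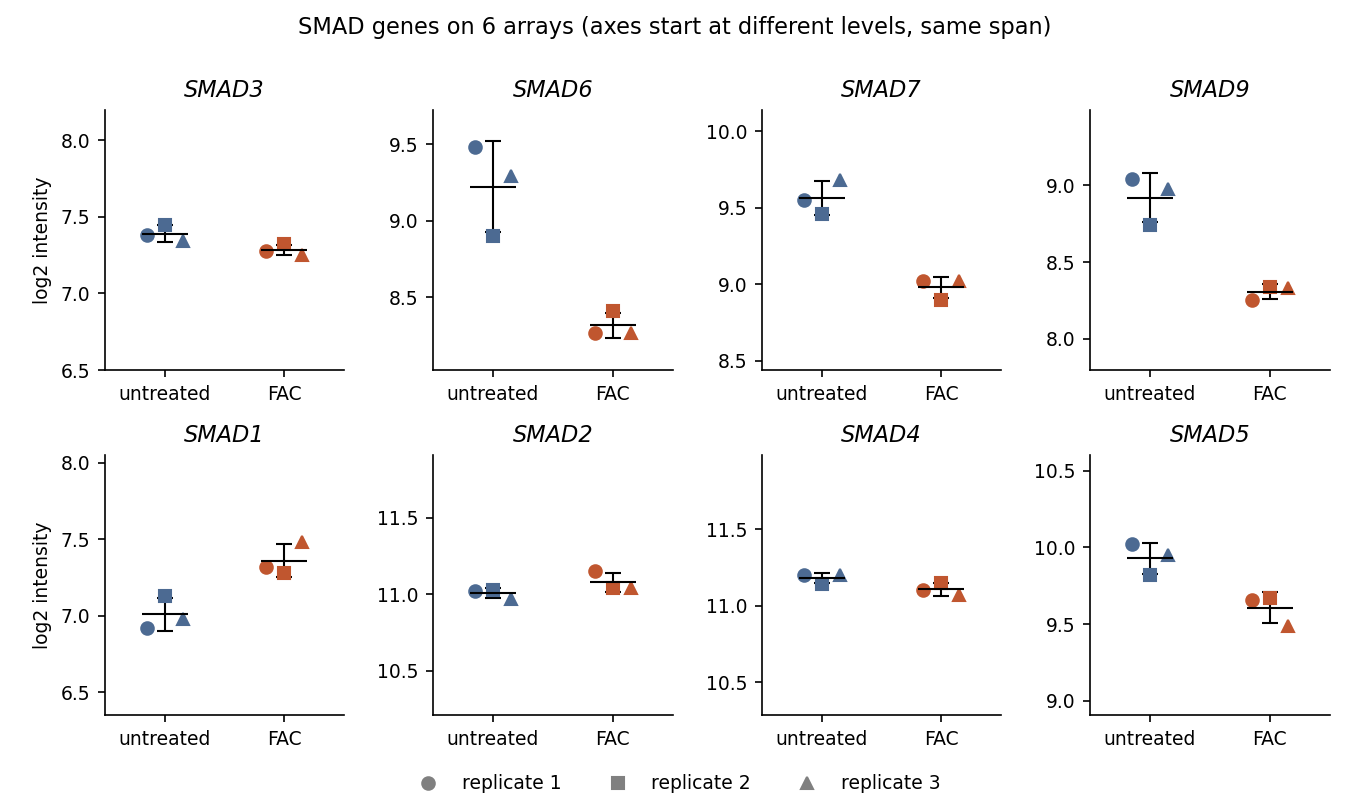
Log2 intensity of the 8 SMAD genes on each array, untreated on the left and FAC on the right of each panel, with the group mean and SD (n = 3); marker shape gives the replicate number, and all panels span the same range from different starting levels. SMAD6, SMAD7 and SMAD9 lie clearly lower on every FAC array, by gaps of 0.49, 0.44 and 0.40 between the groups, and SMAD3 by 0.01.

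SMAD6, the inhibitor with a preference for BMP receptors, measured log2 intensities of 9.48, 8.90 and 9.29 on the untreated arrays and 8.27, 8.41 and 8.27 on the FAC arrays (probe 16802232). The groups did not overlap, with FAC lower, as in 13% of all genes tested. Untreated replicate 2 lay well below the other untreated arrays. The mean level went from 9.23 ± 0.29 to 8.32 ± 0.09 (SD, n = 3), a log2 fold change of -0.91 ± 0.13 (SE, 95% interval -1.22 to -0.60) and a 1.88-fold fall with an adjusted p of 0.0137. This was the ninth lowest log2 fold change among the genes tested. With 1 array left out, the fall of SMAD6 lay between -1.07 and -0.78 and no longer passed when the array left out was untreated replicate 3 (adjusted p = 0.0637), FAC replicate 1 (0.0699) or FAC replicate 3 (0.0579). The annotation pairs its probe with a non-coding RefSeq transcript of the gene, and which SMAD6 transcripts the probe measured was not tested.

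SMAD7, the inhibitor of both branches that brings ubiquitin ligases to the receptors, measured 9.55, 9.46 and 9.68 untreated and 9.02, 8.90 and 9.02 with FAC (probe 16855127). The 3 FAC arrays lay below all untreated arrays, and neither group held an array far from the others. Its level went from 9.56 ± 0.11 to 8.98 ± 0.07 (SD, n = 3), a log2 fold change of -0.59 ± 0.07 (95% interval -0.75 to -0.42, 1.5-fold lower, adjusted p = 0.00714). Of the called members, SMAD7 alone kept its call with each of the 6 arrays left out and under all 8 other settings, with a log2 fold change between -0.64 and -0.53.

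SMAD9, also known as SMAD8, measured 9.04, 8.74 and 8.98 untreated and 8.25, 8.34 and 8.33 with FAC (probe 16778155). As with SMAD6, untreated replicate 2 was the lowest of its group but stayed above every FAC array. The level went from 8.92 ± 0.16 to 8.31 ± 0.05 (SD, n = 3), a log2 fold change of -0.61 ± 0.08 (95% interval -0.81 to -0.42, 1.53-fold lower, adjusted p = 0.01). The call of SMAD9 was lost when untreated replicate 3 (adjusted p = 0.0514) or FAC replicate 1 (0.0559) was left out, and testing all 53617 probes in place of named genes lost the calls of SMAD9 (0.0517) and SMAD6 (0.0617).

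The other SMADs that BMP receptors phosphorylate did not follow SMAD9 in a common direction. SMAD1 measured 6.92, 7.13 and 6.98 untreated and 7.32, 7.28 and 7.48 with FAC, and all FAC arrays lay above the untreated ones. Its log2 fold change was 0.35 ± 0.08 (95% interval 0.17 to 0.53, adjusted p = 0.0555), just short of the threshold, and without untreated replicate 2 it passed at 0.41 (adjusted p = 0.0465). SMAD5 measured 10.02, 9.82 and 9.95 untreated and 9.66, 9.67 and 9.49 with FAC, with every FAC array below the untreated ones. Its log2 fold change was -0.32 ± 0.08 (95% interval -0.50 to -0.14, adjusted p = 0.0664). SMAD1 passed under 5 of the 14 alternatives and SMAD5 under 2, with adjusted p from 0.0261 to 0.175 and from 0.00961 to 0.192. Both passed without the dimmest 33.3% of genes and when the variance prior followed intensity, and SMAD1 also with array weights and median centring.

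Set against each other array by array, the change of SMAD1 exceeded that of SMAD9 by 0.96 ± 0.17 on the log2 scale (95% interval 0.50 to 1.43) and that of SMAD5 by 0.67 ± 0.17 (0.20 to 1.15). The change of SMAD5 exceeded that of SMAD9 by 0.29 ± 0.08 (0.07 to 0.52). In each of these 3 pairs the array differences of the groups did not overlap, which gives the smallest p that 3 against 3 arrays allow in a two-sided exact permutation test, 0.1, also after adjustment over the 3 pairs. These pairs were chosen after their values had been seen. SMAD5-AS1, an antisense transcript of the SMAD5 locus, measured -0.22 ± 0.12 (adjusted p = 0.393).

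SMAD3, the transducer of TGF-beta and activin signals, measured 7.38, 7.45 and 7.34 untreated and 7.28, 7.32 and 7.25 with FAC (probe 16802251). The groups were separated by only 0.01, less than the spread within either. Separation of any size in either direction occurred in 23.4% of all genes. The log2 fold change of SMAD3 was -0.10 ± 0.06 (95% interval -0.23 to 0.02, adjusted p = 0.394), so the interval holds ratios of FAC to untreated from 0.851 to 1.02. SMAD2, its partner on the same receptors, measured 11.02, 11.03 and 10.97 untreated and 11.15, 11.04 and 11.04 with FAC, a log2 fold change of 0.07 ± 0.06 (95% interval -0.05 to 0.20, adjusted p = 0.563). SMAD4, which all receptor-regulated SMADs bind, measured 11.20, 11.14 and 11.20 against 11.10, 11.15 and 11.07, with overlapping groups and a log2 fold change of -0.07 ± 0.05 (95% interval -0.19 to 0.05, adjusted p = 0.541). None of SMAD2, SMAD3 and SMAD4 passed under any of the 14 alternatives.

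**Figure D2:**
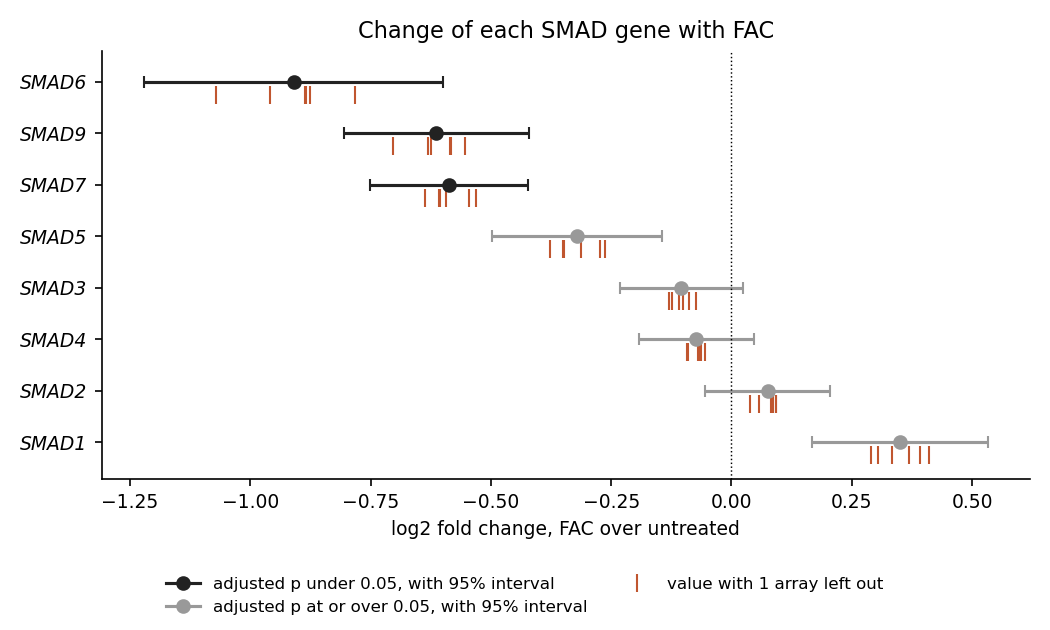
Log2 fold change of FAC over untreated for the 8 SMAD genes (points) with limma's 95% interval (bars), dark where the adjusted p is under 0.05, and the values with 1 array left out (ticks below). SMAD6, SMAD9 and SMAD7 stand lowest at -0.91, -0.61 and -0.59, SMAD3 is at -0.10, and SMAD1 highest at 0.35.

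The 4 genes were compared with each other in 6 pairs, from the difference of their log2 values on each array. The log2 fold change of SMAD3 lay above that of SMAD6 by 0.81 ± 0.20 (95% interval 0.26 to 1.36), above that of SMAD7 by 0.48 ± 0.11 (0.17 to 0.79) and above that of SMAD9 by 0.51 ± 0.12 (0.17 to 0.85). These intervals lie above 0, and the array differences did not overlap between groups. In the exact permutation test (two-sided) each had p = 0.1, the smallest that 3 against 3 allow, and 0.15 after adjustment over the 6 pairs, so no pair can pass in this design. SMAD6 fell by 0.30 ± 0.09 more than SMAD9 on the log2 scale (difference -0.30, interval -0.54 to -0.05, exact permutation p = 0.1, adjusted 0.15). SMAD6 and SMAD7 differed by -0.32 ± 0.17 (interval -0.79 to 0.14, exact permutation p = 0.2, adjusted 0.24). SMAD7 and SMAD9 differed by 0.03 ± 0.09 (interval -0.23 to 0.28, exact permutation p = 0.7), an interval that still leaves room for unequal falls.

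Arrays of 1 group differed from each other in a like way in several SMAD genes. Untreated replicate 2 lay nearest to the FAC mean among the untreated arrays for SMAD6, SMAD7, SMAD9 and each of the other 4 SMAD genes, 7 of the 8. SMAD3, in which it lay farthest, was the exception. Over all tested genes this array was the nearest in 36.5%, and over the 555 called genes in 47.7%. Without it the log2 fold changes were -1.07 for SMAD6 (adjusted p = 0.00367), -0.70 for SMAD9 (0.00514) and -0.64 for SMAD7 (0.0109). The untreated SD exceeded the FAC SD in all 4 of SMAD3, SMAD6, SMAD7 and SMAD9, as in 51.1% of tested genes.

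The arrays as a whole were close to each other, with medians of 6.03 to 6.09 over all probes and Pearson's r of 0.991 to 0.995 between pairs, and no 2 were identical. The line's label was checked against 13 measured markers of retinal pigment epithelium. Of the 13, 6 lay above the median level of the tested genes and 4 in the dimmest 33.3%. OTX2 (11.10), KRT18 (11.08), TYRP1 (10.07) and MITF (8.97) were bright in untreated cells, and RPE65 and BEST1, defining genes of the mature tissue, were dim (5.67 and 5.89, percentiles 22.6 and 26.5 of the tested genes). The blood marker CD68 (11.43) and the neural marker SYT1 (9.43) were bright there as well. None of 23 measured markers of pigment epithelium, blood, endothelial and neural cells was called by limma. Of these, 7 had an unadjusted p under 0.05, beside 17.2% of all genes. Summed linear intensity was lower on all FAC arrays than on any untreated array for the 4 neural markers (850.3 to 876 against 878 to 989) and the 2 blood markers (2526 to 2708 against 2742 to 2935). Each of these sums follows its brightest gene. Among the neural markers SYT1 changed by -0.21, while SAG (0.27), GFAP (0.23) and NRL (0.11) had positive changes, and among the blood markers CD68 changed by -0.12 and CD14 by 0.04. The ranges overlapped for the 4 endothelial markers (351 to 375 against 354 to 407) and the 13 pigment epithelium markers (6408 to 6524 against 6332 to 7495). The part of these markers in the SMAD results was not tested.

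Upstream of the SMADs, BMP and GDF ligand genes moved while the few measured receptors did not pass. The genes of the TGF-beta ligands (TGFB1, TGFB2, TGFB3) and of activin and inhibin subunits (INHBA, INHBB, INHBE) were not analysed here. Of the 17 listed ligands that were measured, all BMPs, GDFs, MSTN or NODAL, 3 rose and 1 fell, with a median change of 0.03. That is 23.5% of the list called, beside 3.73% of all genes. The lists here and below were chosen with earlier results of these data known. BMP2, a ligand of BMP receptors, measured 6.44, 6.34 and 6.64 untreated and 7.88, 7.77 and 7.65 with FAC, a log2 fold change of 1.29 ± 0.09 (adjusted p = 0.000992). GDF5, a ligand of cartilage and joints, rose by 0.73 ± 0.06 (adjusted p = 0.00194, with 0.22 on a second, dimmer probe). BMP4 rose by 0.66 ± 0.07 (adjusted p = 0.00474). BMP6, the ligand that iron induces in the liver, measured 10.69, 10.38 and 10.56 against 10.10, 10.17 and 10.12, with untreated replicate 2 again the lowest of its group. Its log2 fold change was -0.42 ± 0.08 (adjusted p = 0.0329), and the call remained only without untreated replicate 2 when 1 array was left out (adjusted p up to 0.132). BMP2, BMP4 and GDF5 kept their calls with every array left out.

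Of 19 receptors and co-receptors listed, 5 had a named probe, and the signalling receptors of TGF-beta, activin and BMP, apart from ACVRL1, were not analysed here. None of the 5 was called by limma, beside 3.73% of all genes, and 1 had an unadjusted p under 0.05, beside 17.2% of all genes. That was HJV, a BMP co-receptor of iron sensing (0.17 ± 0.06, adjusted p = 0.237), at a low level of 5.01 in untreated cells. Of 14 measured secreted and membrane inhibitors, TWSG1, which binds BMPs together with chordin, was the single gene called (7.14%, beside 3.73% of all genes). TWSG1 changed by 0.24 ± 0.05 (adjusted p = 0.0465). It passed with none of the arrays left out (adjusted p up to 0.175). The BMP antagonist gene NOG measured 7.79, 8.43 and 7.79 untreated and 8.56, 8.58 and 8.60 with FAC. Untreated replicate 2 again stood toward the FAC arrays, and NOG did not pass (0.58 ± 0.16, adjusted p = 0.104).

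Among genes that act on SMAD proteins, those that passed were lower. Of 12 measured genes of SMAD turnover and dephosphorylation, 1 was called (8.33%, beside 3.73% of all genes). That was LDLRAD4, whose product keeps SMAD2 and SMAD3 from the TGF-beta receptor. It measured 8.16, 8.02 and 8.07 untreated and 7.51, 7.66 and 7.58 with FAC, without overlap, a log2 fold change of -0.50 ± 0.06 (adjusted p = 0.00804) that passed with each array left out. The list's median was -0.06, and none rose. Of 21 measured nuclear partners and anchors, 2 fell and none rose (9.52% called), with a median of -0.04. SKIL, a corepressor that TGF-beta both degrades and induces, measured 9.47, 9.57 and 9.56 untreated and 9.16, 9.17 and 9.07 with FAC (-0.40 ± 0.06, adjusted p = 0.0116). HIVEP2, a zinc finger protein of the Schnurri family that binds BMP SMADs, fell by 0.34 ± 0.05 on the log2 scale (adjusted p = 0.0184), and a second, dim probe gave 0.07. SKIL lost its call without untreated replicate 3 or FAC replicate 1 (adjusted p up to 0.0575), and HIVEP2 kept its call only without untreated replicate 2 (up to 0.0673).

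Downstream, genes fell among the targets of the TGF-beta branch, and none of the measured targets of the BMP branch was called. Of 17 measured genes that TGF-beta induces through SMAD3, 8 fell and none rose, which is 47.1% of the list beside 3.73% of all genes, and the median was -0.26. As that list was chosen with earlier results of these data known, its share is no independent support. NOX4, an oxidase that makes hydrogen peroxide, measured 10.92, 10.87 and 10.88 untreated and 10.38, 10.31 and 10.23 with FAC (-0.58 ± 0.06, adjusted p = 0.00334). ANGPTL4, a secreted lipase inhibitor that hypoxia also induces, fell by 0.58 ± 0.08 on the log2 scale (adjusted p = 0.0101). LTBP2, a matrix protein of the latent TGF-beta binding family, fell by 0.53 ± 0.06 on its brighter probe (adjusted p = 0.00714) and by 0.34 on the other. JUNB, a transcription factor of immediate response, fell by 0.40 ± 0.07 on the log2 scale (adjusted p = 0.0223). ANGPTL4 lost its call without untreated replicate 3 or FAC replicate 1 (adjusted p up to 0.0559), and JUNB kept its call only when untreated replicate 2 was the array left out (up to 0.0855). SKIL is counted in this list too. The count of 8 became 4 without untreated replicate 1, 6 without untreated replicate 2, 2 without untreated replicate 3, 2 without FAC replicate 1, 5 without FAC replicate 2 and 4 without FAC replicate 3.

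Of 13 measured target genes of BMP SMADs none was called by limma, and 1, NOG, had an unadjusted p under 0.05, beside 17.2% of all genes. NOG passed, as higher, without untreated replicate 2 (log2 fold change 0.79) and with the variance prior that follows intensity, and the list's count of 0 became 1 in those settings. The list's median was 0.03, and its members ranged from -0.23 to 0.58. HAMP, the hepcidin gene, measured 7.51, 7.64 and 7.42 untreated and 7.68, 7.49 and 7.59 with FAC, with overlapping groups (0.06 ± 0.08, adjusted p = 0.742). ATOH8, a BMP-induced transcription factor, measured 7.08, 6.79 and 7.26 against 6.75, 6.83 and 6.86 (-0.23 ± 0.11, adjusted p = 0.347). The inhibitor of differentiation genes ID1 to ID4, the best known of these targets, were not analysed here. Whether the lists of both branches differ from each other was not tested.

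The genes whose values over the 6 arrays ran most like each SMAD gene were sought among 7008 others at or above the median level, by the root mean square difference of log2 values centred on the gene's mean. For SMAD6 these were HMCN1, a matrix protein (0.10), the deubiquitinase gene USP35 (0.12) and CDK15 (0.13), beside a median difference from SMAD6 of 0.48. For SMAD7 they were the adhesion receptor gene ADGRG1 (0.05), RIMKLA (0.06) and the mitophagy gene BNIP3 (0.06), beside a median of 0.30. For SMAD9 they were ADAMTSL3 (0.04), GXYLT2 (0.04) and TLL1, a metalloprotease of the BMP1 family (0.07), beside a median of 0.31. For SMAD3 they were BTBD10 (0.0047), SP100 (0.01) and CAST (0.01), with a median of 0.09. All 9 genes named for SMAD6, SMAD7 and SMAD9 fell, with log2 fold changes from -0.99 for CDK15 to -0.50 for RIMKLA and TLL1, and the 3 named for SMAD3 did not pass. Centring over both groups puts the FAC change into this measure, so these changes follow from how the genes were picked. Among SMAD3, SMAD6, SMAD7 and SMAD9, SMAD7 and SMAD9 ran closest to each other (0.09), followed by SMAD6 and SMAD9 (0.17) and SMAD6 and SMAD7 (0.23).

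**Figure D3:**
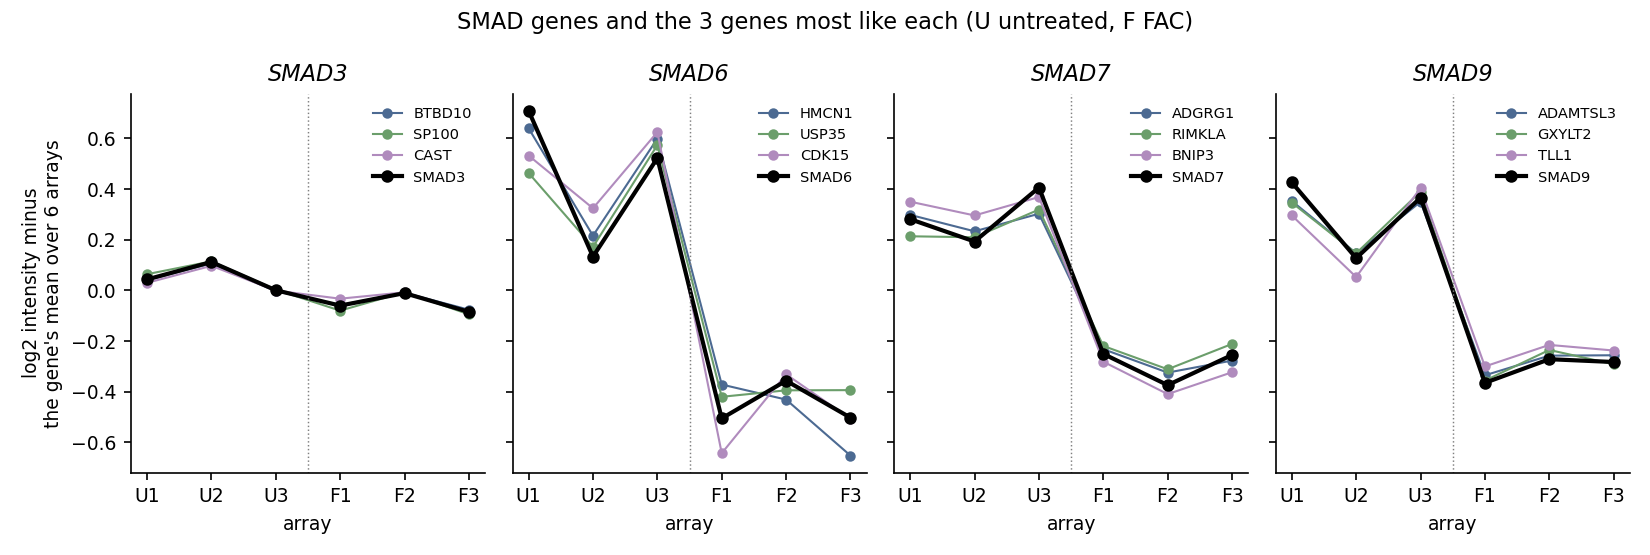
Log2 intensity minus the gene's mean over the 6 arrays (U1 to U3 untreated, F1 to F3 FAC) for SMAD3, SMAD6, SMAD7 and SMAD9 (black) and the 3 genes most like each (colours); lines join arrays only to guide the eye. SMAD6 and SMAD9 share with their nearest genes a lower value on U2 than on the other untreated arrays. This likeness follows from how the genes were picked, over the same 6 arrays. SMAD3 stays close to its mean throughout.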

How the data were processed

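Per the labels' protocols, RNA from each of the 6 ARPE-19 cultures was amplified, biotin-labelled and put on an array of its own. The deposited table gives log2 intensities of 53617 probes. The submitters' processing notes name RMA and the Partek 6.6 software; their order and the genome build are not given in the sources used here. The table holds no detection calls or scan dates, and the number of arrays limits the precision. The platform annotation names 1 gene for each of 16098 probes, and 37519 probes are unnamed here. For the 779 genes with several probes, the one with the highest mean was used. The FAC change came from limma (version 3.58.1, under R 4.3.3; lmFit and eBayes, two-sided), Benjamini-Hochberg adjusted over 14884 genes at 0.05, after a check on simulated data. Pairs of SMAD genes were compared by per-array differences, with intervals from their pooled SD.

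The members and lists were chosen with earlier results of these data known, so the falls of SMAD6, SMAD7, SMAD9 and the TGF-beta targets are no independent support for each other or for earlier results. Named genes are the SMADs, up to 4 called genes per list or the one with the smallest p, and the 3 most like each member among genes that are neither uncharacterised nor small RNAs; others were picked after their values were seen. Same-numbered arrays did not deviate together (correlations of -0.02, -0.03 and -0.15 over genes), so the numbers were not taken as pairs. The alternatives were a filter on dim genes, quantile normalization, median centring, another variance prior, array weights, averaged probes, all probes, a replicate block and leaving out each array. Promoter letters are RefSeq's.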

Additional observations from a re-analysis of the deposited data

How the results depend on the processing

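SMAD7 kept its call, and SMAD3 stayed uncalled, under all 14 alternatives; SMAD6 kept its call under 10 and SMAD9 under 11. With every probe tested, 1 of the 4 SMAD genes passed, 254 probes passed in all, of which 111 stand for named genes, and SMAD6 (-0.91) and SMAD9 (-0.61) did not. With 1 array left out, between 1 and 3 of the 4 passed, with SMAD6 between -1.07 and -0.78, SMAD9 between -0.70 and -0.55, SMAD7 between -0.64 and -0.53 and SMAD3 between -0.13 and -0.07. The count of called genes, 555, became 840 without the dimmest 33.3% of genes, 1026 with a variance prior that follows intensity and between 147 and 447 with 1 array left out. The 15 called genes of the 7 lists became 24 with that variance prior and between 6 and 14 with 1 array left out. With the replicate number as a block, 184 genes and 7 list genes passed, and SMAD6, SMAD7 and SMAD9 kept their calls (adjusted p = 0.0437, 0.0222 and 0.0392); no array matched its own number best. The difference between the changes of SMAD7 and SMAD9, 0.026, turned to -0.040 without untreated replicate 1 and -0.024 without FAC replicate 1 and ranged from -0.040 to 0.084 with 1 array left out, and the other 5 pairs kept their direction under the 8 alternatives run for pairs. Fewer arrays or more tests enter these fits by construction; beyond that the cause was not tested. Without detection calls, signal over background is unknown.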

Other observations

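The nearest genes with a named probe on either side of SMAD3, SMAD6, SMAD7 and SMAD9 were read from the RefSeq gene order. SMAD6 and SMAD3 are themselves neighbours in that order on chromosome 15, and their changes were -0.91 and -0.10. Of the 12 flanking genes outside the family, 1 was called, beside 3.73% of all genes tested. That gene, MAP2K1, encodes the kinase MEK1 and is parted from SMAD6 by LCTL (0.01). MAP2K1 fell by 0.28 ± 0.05 on the log2 scale (adjusted p = 0.0295), a call that did not remain with any 1 array left out (adjusted p up to 0.109). The other flanking genes measured between -0.15 for SERTM1 and 0.19 for CTIF and did not pass.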
